A study of Mus musculus with 17 samples.

Results

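The renin-angiotensin system genes described here are 9 rows of a count table of 53379 genes, found by matching the table's Ensembl gene identifiers to the symbols Agt, Ren1, Ace, Agtr1a, Agtr1b, Enpep, Mme, Anpep and Atp6ap2 in the GENCODE annotation of the mouse genome build GRCm38. All 9 were found, and all 9 passed the filter on low counts. The table comes from RNA sequencing of kidney cortex enriched for glomeruli, from 17 BTBR mice with 1 library each. The ob/ob mice lack working leptin through the Lepob mutation and become obese and diabetic on the BTBR background. Of them, 5 received saline and 7 received atrasentan, which blocks the endothelin receptor of type A. The dose was 5 mg per kg a day in the drinking water, from week 18 to week 24 of age. The 5 BTBR wild type mice, sampled at that age, carry neither the mutation nor a treatment label. The label for genotype is 'WT-d30' for wild type mice, 'ob/ob-d30' for the saline mice and 'BTBR ob' for the atrasentan mice. The sources used here do not explain 'd30'. Sample numbers in the labels run by group, so order of handling and group cannot be told apart. Libraries are numbered here within a group only to name them.

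The renin-angiotensin system is a chain of cleavages that ends at a receptor. Renin, made by juxtaglomerular cells at the glomerular entrance, cuts angiotensinogen to angiotensin I, and the converting enzyme Ace removes its last residues to give angiotensin II. Angiotensin II acts on the AT1 receptor, which constricts vessels and contracts mesangial cells. Surface peptidases shorten or divert these peptides: aminopeptidase A (Enpep) makes angiotensin III from angiotensin II, and aminopeptidase N (Anpep) then makes angiotensin IV. Neprilysin (Mme) forms angiotensin 1-7 from angiotensin I. In the kidney much of the angiotensinogen RNA is in the proximal tubule, and several of these peptidases belong to its brush border. Enpep and Mme are also carried by podocytes.

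Promoter sequences of 4 members are shown because these genes stand for the patterns that follow: Agt and Anpep were highest with saline, Enpep fell furthest with atrasentan against wild type, and Ren1 was called in no comparison. Each is the run of 250 bases before the start of transcription in RefSeq (GRCm38.p6), 5′ to 3′ on the strand of the gene, and capitals mark the letters TATAAA, the core of a TATA box, on either strand. Agt is read from chr8:124569707-124569956 (minus strand), Ren1 from chr1:133350424-133350673 (plus strand), Enpep from chr3:129332750-129332999 (minus strand) and Anpep from chr7:79848211-79848460 (minus strand).
Agt: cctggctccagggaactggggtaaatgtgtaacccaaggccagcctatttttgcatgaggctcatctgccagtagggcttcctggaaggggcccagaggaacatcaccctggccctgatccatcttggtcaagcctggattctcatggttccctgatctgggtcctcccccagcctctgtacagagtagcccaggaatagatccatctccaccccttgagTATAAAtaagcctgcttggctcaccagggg
Ren1: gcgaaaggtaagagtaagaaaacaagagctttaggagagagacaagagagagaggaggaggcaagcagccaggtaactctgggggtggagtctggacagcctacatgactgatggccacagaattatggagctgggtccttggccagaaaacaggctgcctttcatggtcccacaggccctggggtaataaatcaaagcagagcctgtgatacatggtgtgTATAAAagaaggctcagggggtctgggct
Enpep: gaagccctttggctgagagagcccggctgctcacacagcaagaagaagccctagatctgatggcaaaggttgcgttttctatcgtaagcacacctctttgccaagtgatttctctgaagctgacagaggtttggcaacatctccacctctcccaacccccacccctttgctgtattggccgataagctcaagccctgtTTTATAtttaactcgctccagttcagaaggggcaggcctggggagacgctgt
Anpep: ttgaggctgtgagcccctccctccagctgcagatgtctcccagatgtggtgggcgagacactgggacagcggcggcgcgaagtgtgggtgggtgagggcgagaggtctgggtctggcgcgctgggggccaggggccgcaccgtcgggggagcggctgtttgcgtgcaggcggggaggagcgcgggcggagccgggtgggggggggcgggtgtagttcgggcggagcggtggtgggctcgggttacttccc
The Agt and Ren1 runs each held TATAAA on the gene's own strand, with its first letter 30 and 29 bases before the start. In the Enpep run the match lay on the other strand, 52 bases before the start, and a second one overlapped the start itself. The Anpep run held none and was 72.8% G and C, against 55.6% for Agt, 51.6% for Ren1 and 52.4% for Enpep. This Anpep start lies inside the gene's GENCODE span (chr7:79821803-79861059, 6 transcripts), so it may not be the only start. The same holds for the Ren1 start (GENCODE span chr1:133350510-133360325, 2 transcripts), and part of the printed Ren1 run lies within that span. Which start was used in these samples was not measured. RefSeq windows that add the first 50 transcribed bases were matched for 8 of the 9 members (11 windows, with 3 for Mme and 2 for Ace). Among them Agtr1b held TATAAA 31 bases before its start and the first Ace window held it on the other strand, while no Mme, Anpep or Atp6ap2 window held it. TATAAA on either strand was in 13.6% of all 32851 windows of that length. None of the members' windows held GTTAAT (part of an HNF1 site, in 7.10% of all windows), GCGTGGG (a core read by WT1 and EGR factors, 5.04%) or TGACGTCA (the cyclic AMP response element, 1.79%). These are matches of letters, and no binding was measured.

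Levels are CPM, read counts scaled to a common total of gene reads, adjusted with TMM factors between libraries, and levels of different genes are compared only as CPM per kilobase of exon. On that per-length scale Ren1 stood first in wild type at 306.6 ± 150.5 (mean ± SD, n = 5), followed by Agtr1a at 145.7 ± 18.8 and Enpep at 137.8 ± 46.4. Ren1 lay above Agtr1a in every pair of libraries, whereas the ranges of Agtr1a and Enpep overlapped. Atp6ap2 followed at 60.6 ± 4.36, and then came a step of about an order of magnitude to Mme at 6.60 ± 1.79 and Ace at 5.52 ± 1.50, whose ranges overlapped. Anpep (2.05 ± 0.53) and Agt (1.78 ± 0.71) also overlapped, and Agtr1b was last at 0.18 ± 0.10. Renin RNA was therefore far more abundant per length than that of its substrate, angiotensinogen. With saline Agt moved from the eighth place to the fifth, at 16.4 ± 13.3 CPM per kilobase, and Mme to the eighth, at 3.90 ± 1.09. There the ranges of Agt and Ace, of Ace and Anpep, and of Anpep and Mme overlapped, so these places do not differ beyond the spread. With atrasentan Enpep dropped behind Atp6ap2, at 16.8 ± 11.9 against 74.6 ± 8.82 CPM per kilobase, and these ranges did not overlap. Below it, Enpep, Ace, Agt, Anpep and Mme each overlapped the next in order. Ren1 and Agtr1a then overlapped, at 317.4 ± 90.4 and 246.6 ± 52.1. Agtr1b was last in all 3 groups.

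**Figure D1:**
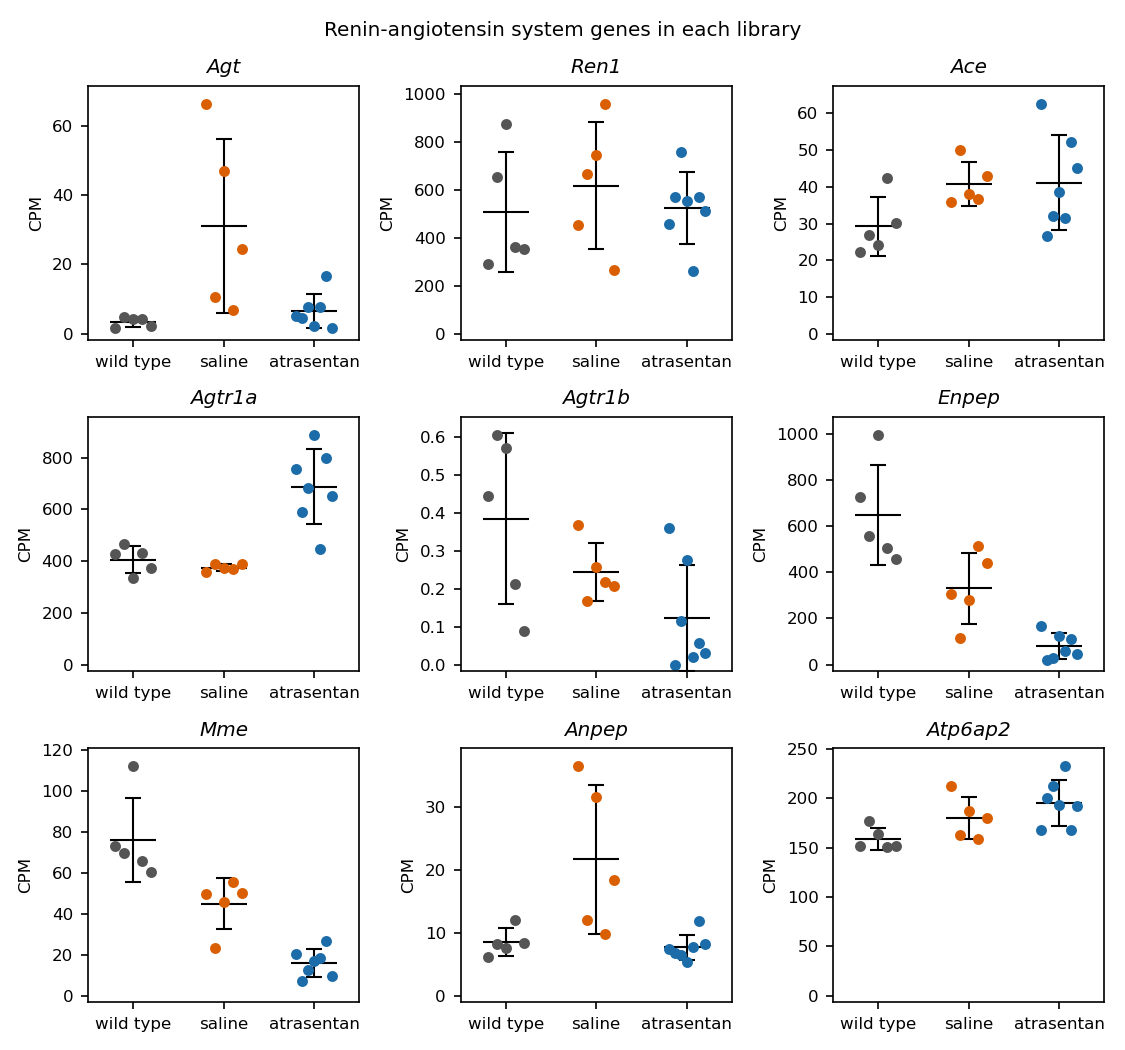
Level of each of the 9 genes (CPM, linear axis) in each of the 17 libraries, with the mean and SD of each group as a bar with whiskers. Agt and Anpep are highest in saline libraries, the means of Enpep and Mme are highest in wild type and lowest with atrasentan (their difference between saline and wild type did not pass), and all atrasentan libraries lie above all saline libraries for Agtr1a.

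The 3 groups gave 3 comparisons, each tested over 17766 genes with edgeR's quasi-likelihood test, and a gene was called at a Benjamini-Hochberg adjusted p under 0.05. Between saline-treated ob/ob mice and wild type mice, 2 of the 9 members rose (Agt and Anpep), none fell and 7 did not pass. In that comparison 5.12% of all genes tested were called, 3.21% higher and 1.91% lower. At an unadjusted p under 0.05, which 21.5% of all genes had, Ace was also higher and Mme lower. DESeq2 called 2 members and 1979 genes in all, and limma-voom called 0 members and 550 genes. With atrasentan against saline, 4 members fell (Agt, Anpep, Enpep and Mme), 1 rose (Agtr1a) and 4 did not pass, where 33.8% of all genes were called, 15.3% higher and 18.5% lower. With atrasentan against wild type, 2 fell (Enpep and Mme), 2 rose (Agtr1a and Atp6ap2) and 5 did not pass, where 29.2% of all genes were called, 14.7% higher and 14.5% lower. The median log2 fold change of the 9 members was 0.18, -0.97 and 0.05 in the same order, and that of all genes tested lay within 0.01 of 0 each time. All 3 comparisons use the same 3 groups, so each pair of them shares a group and their values are not independent.

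**Figure D2:**
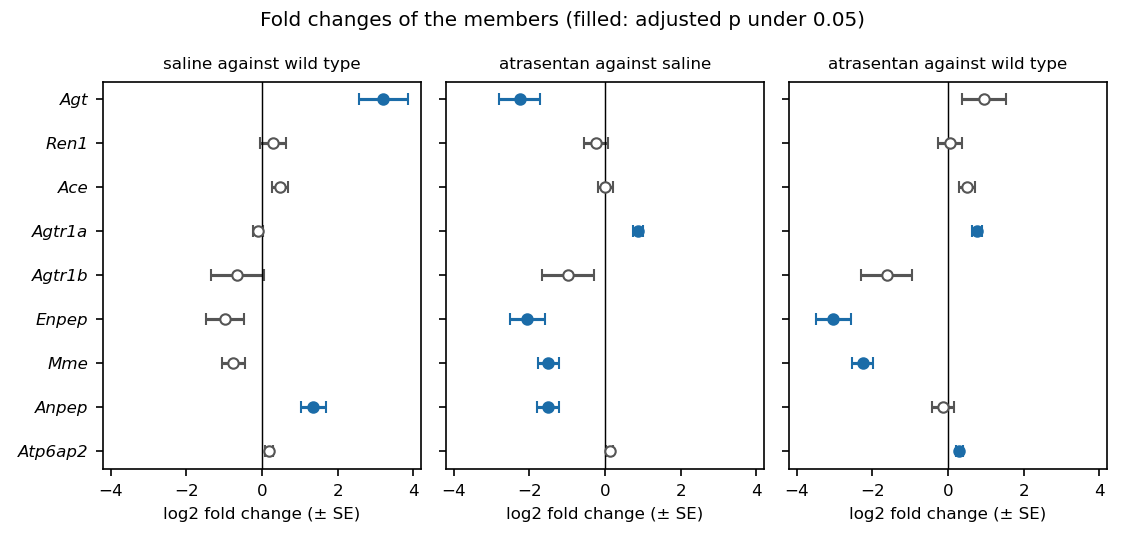
Log2 fold change of each member in the 3 comparisons, with its standard error. Filled points passed the edgeR test at an adjusted p under 0.05: 2 members for saline against wild type, 5 for atrasentan against saline and 4 for atrasentan against wild type.

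Markers of cell types differed between the groups, and their values are given here because several members belong to those cells. Proximal tubule markers (20 genes) had a mean log2 CPM of 6.20 to 7.29 over the wild type libraries, 6.99 to 9.31 with saline and 3.54 to 6.74 with atrasentan. Of these 20 genes, 8 rose with saline against wild type, all 20 fell with atrasentan against saline and 9 fell with atrasentan against wild type. Saline libraries 1 (9.31) and 3 (9.25) held the most, and atrasentan library 7 the least. Podocyte markers (22 genes) had a mean of 7.76 to 8.50 in wild type, 6.76 to 7.72 with saline and 5.56 to 6.98 with atrasentan. Of them 9 fell with saline against wild type, 11 fell with atrasentan against saline, and 20 fell with atrasentan against wild type. Mesangium markers (12 genes) had a mean of 8.40 to 8.85 in wild type, 8.34 to 8.57 with saline and 8.57 to 9.43 with atrasentan. With atrasentan 11 of them rose against saline and 6 against wild type. Markers of glomerular endothelium (19 genes) had a mean of 9.03 to 9.23 in wild type, 8.86 to 9.44 with saline and 9.36 to 9.71 with atrasentan. Of them 11 rose with atrasentan against saline, and 10 rose and 1 fell against wild type. Macrophage markers (13 genes) had a mean of 2.19 to 2.93, 2.63 to 3.29 and 3.81 to 5.83 in the same order, and 10 rose against saline and 9 against wild type. Of 7 vascular smooth muscle genes, 1 rose against saline and 3 against wild type. No gene of these 5 lists with ranges was without reads in any group. The podocyte mean lay above the proximal tubule mean in all wild type and 6 of 7 atrasentan libraries, and below it in 4 of 5 saline libraries. In bulk tissue, fewer cells of a type and less RNA per cell cannot be told apart. The atrasentan libraries also had fewer genes with a read (21396 to 23081, against 23901 to 25313 in the others) and fewer reads outside genes (3.17% to 5.65%, against 5.95% to 8.58%).

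Agt, which encodes angiotensinogen, the substrate of the whole system, had the largest rise with saline against wild type. Its gene (ENSMUSG00000031980.9) lies at chr8:124556534-124569706 on the minus strand. In wild type libraries 1 to 5 its level was 1.71, 4.64, 4.17, 4.14 and 2.12 CPM. With saline it was 66.2, 10.6, 47.1, 6.81 and 24.5 CPM. All 5 saline libraries lay above all 5 wild type libraries, but they spread widely among themselves, with libraries 1 and 3 highest. The mean was 31.0 ± 25.2 CPM with saline and 3.36 ± 1.34 in wild type (SD, n = 5 each), a log2 fold change of 3.21 ± 0.65 (SE, edgeR adjusted p = 0.0136). With atrasentan the lowest, median and highest of 7 libraries were 1.69, 5.05 and 16.5 CPM, and 4 of the 7 lay below every saline library. Agt fell by 2.26 ± 0.55 on the log2 scale against saline (edgeR adjusted p = 0.00532). Against wild type its log2 fold change was 0.95 ± 0.58 (edgeR adjusted p = 0.231), with overlapping ranges.

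The Agt level followed the proximal tubule markers among mice of the same group. With the group means removed, Pearson's r between log2 Agt and the proximal tubule mean was 0.93 over 17 libraries (permutation p = 1e-05, the smallest that the resamples can give, adjusted p = 9e-05 over the 9 members). Spearman's rho was 0.88 (permutation p = 0.00028, adjusted p = 0.00252), r without the 2 libraries farthest from the median of the marker mean was 0.89, and r among the 7 atrasentan libraries alone was 0.91. Relative to the mean of the 20 proximal tubule markers the order of the groups was another one. That mean was itself 6.58 in wild type, 8.24 with saline and 5.05 with atrasentan, so a gene of unchanged level shifts on this scale. A separate list of 5 genes of the S3 segment of the tubule moved less. Its median log2 fold change was 0.64 with saline against wild type and -0.85 with atrasentan against saline, against 2.04 and -3.16 for the 20. Agt relative to the S3 list was not tested. Log2 Agt minus the proximal tubule mean was -4.92 ± 0.46 in wild type, -3.76 ± 0.35 with saline and -2.69 ± 0.46 with atrasentan. Saline lay above wild type by 1.16 (exact permutation p = 0.00794, adjusted p = 0.0179 over 27 such tests), with no overlap. Atrasentan lay above saline by 1.06 (exact p = 0.00505, adjusted p = 0.0152), with overlap, and above wild type by 2.22 (exact p = 0.00126, adjusted p = 0.00682), with none. Without saline libraries 1 and 3, the edgeR log2 fold change of Agt was 2.04 against wild type (adjusted p = 0.151) and that of atrasentan against saline was -1.12 (adjusted p = 0.167). With the mean of proximal tubule markers as a covariate, the first was 0.89 (adjusted p = 0.350) and the second turned to 1.58 (adjusted p = 0.137). Atrasentan against wild type, which had not passed, was 2.46 in that fit and was called (adjusted p = 7.79e-05). The covariate's ranges do not overlap between saline and atrasentan. Against wild type (6.20 to 7.29) only atrasentan library 6 (6.74) lies in the shared range, and the other atrasentan libraries lie below it. The called value of 2.46 therefore rests on little overlap, and the fit can hardly separate group from covariate there. The call of saline against wild type was also lost with limma-voom (2.86, adjusted p = 0.0509).

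**Figure D3:**
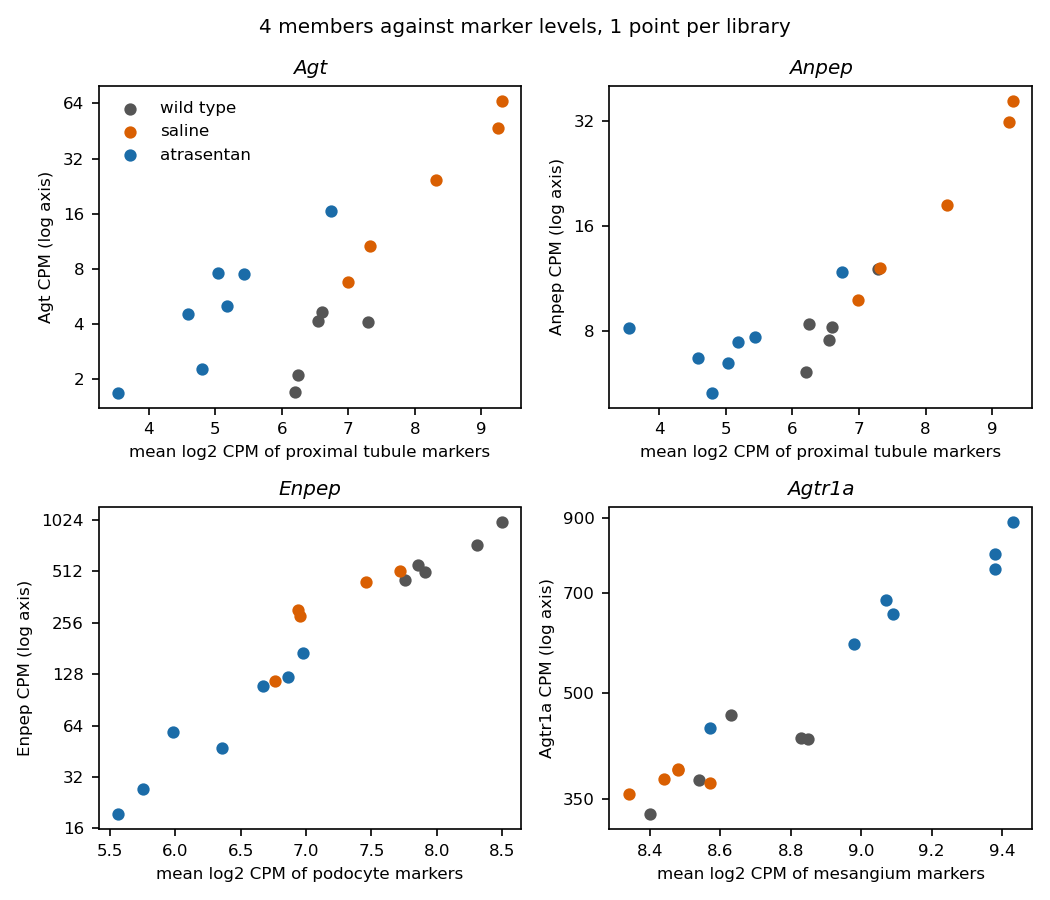
Level of Agt, Anpep, Enpep and Agtr1a (CPM, log axis) against the mean log2 CPM of proximal tubule, podocyte or mesangium markers, 1 point per library. Agt and Anpep climb with the tubule mean among saline libraries, and at the tubule means that wild type and atrasentan libraries share, between 6 and 7, the 1 atrasentan library has more Agt than the wild type libraries. Over the 17 libraries Enpep climbs with the podocyte mean and Agtr1a with the mesangium mean.

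Ren1 encodes renin, the enzyme of the first and rate-limiting step (ENSMUSG00000070645.5, chr1:133350510-133360325, plus strand). It had 290.3, 655.8, 875.7, 363.6 and 355.1 CPM in the wild type libraries and 456.0, 665.4, 747.9, 958.6 and 267.4 CPM in the saline libraries. With atrasentan its lowest, median and highest levels were 259.7, 553.4 and 758.6 CPM. The groups overlapped almost wholly, and the coefficient of variation within them was 49.1%, 43.1% and 28.5%. Group means were 508.1 ± 249.3, 619.1 ± 266.6 and 525.9 ± 149.8 CPM for wild type, saline and atrasentan. The log2 fold change was 0.29 ± 0.34 for saline against wild type (edgeR adjusted p = 0.699), -0.24 ± 0.31 for atrasentan against saline (adjusted p = 0.585) and 0.05 ± 0.32 for atrasentan against wild type (adjusted p = 0.924). Renin is stored in few cells at the vascular pole. Of 7 other genes of renin cells (Akr1b7, Gja5 and others) 5 rose with atrasentan against saline, where 15.3% of all genes were called higher, and 0 with saline against wild type. In the same comparison 11 of 12 mesangium and 11 of 19 endothelium markers rose. The renin cell genes' mean log2 CPM was 5.27 to 5.59 in wild type, 5.42 to 5.71 with saline and 5.67 to 6.04 with atrasentan. Of 5 macula densa genes, 4 fell with atrasentan against saline, where 18.5% of all genes were called lower and all 20 proximal tubule markers fell. Ren1 did not follow the tubule markers (r = -0.17 with group means removed, n = 17, permutation p = 0.541, Spearman's rho -0.19). Some mouse strains carry a second renin gene, Ren2, that the reference strain lacks. No source used here says whether BTBR does, and its reads could be counted as Ren1.

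Ace encodes the angiotensin converting enzyme, carried by endothelium and brush border (ENSMUSG00000020681.14, chr11:105967945-105989964, plus strand). Its level was 22.3, 27.0, 24.2, 42.4 and 30.2 CPM in wild type and 35.9, 50.2, 38.2, 36.7 and 43.0 CPM with saline. Under atrasentan the lowest, median and highest were 26.5, 38.5 and 62.5 CPM. Only wild type library 4 reached into the saline range. Markers of glomerular endothelium rose with atrasentan for 11 of 19 genes against saline and 10 against wild type, and their part in the Ace values was not tested. No comparison passed: the log2 fold change was 0.48 ± 0.22 for saline against wild type (edgeR adjusted p = 0.201), 0.01 ± 0.20 for atrasentan against saline (adjusted p = 0.964) and 0.50 ± 0.20 for atrasentan against wild type (adjusted p = 0.0729). The last one passed without wild type library 4 (0.67, adjusted p = 0.0224) or without atrasentan library 2 (0.58, adjusted p = 0.0315). An antisense gene, Gm11651, overlaps 295 exon bases of Ace, and the library kit does not mark the strand, so reads there cannot be assigned to either.

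Enpep, aminopeptidase A, removes the first residue of angiotensin II and showed the largest fall of the 9 with atrasentan against wild type, while against saline its fall and that of Agt lay within their errors of each other (ENSMUSG00000028024.14, chr3:129269175-129332720, minus strand). Its level was 726.9, 558.4, 994.0, 505.8 and 456.3 CPM in wild type and 305.6, 116.3, 279.9, 512.2 and 441.8 CPM with saline. With atrasentan the lowest, median and highest were 19.3, 58.5 and 169.3 CPM. Every atrasentan library lay below every wild type library, and 5 of 7 lay below every saline library. Among saline libraries 4 of 5 lay below the wild type range. Means were 648 ± 219, 331 ± 154 and 79.2 ± 55.9 CPM for wild type, saline and atrasentan. Enpep fell by 2.06 ± 0.46 on the log2 scale with atrasentan against saline (edgeR adjusted p = 0.00285) and fell by 3.03 ± 0.47 against wild type (adjusted p = 0.000175). For saline against wild type the log2 fold change was -0.97 ± 0.50, which did not pass (adjusted p = 0.273).

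Mme encodes neprilysin, an endopeptidase of podocytes and brush border that makes angiotensin 1-7 from angiotensin I (ENSMUSG00000027820.12, chr3:63241537-63386030, plus strand). It had 73.2, 69.5, 112.2, 65.7 and 60.4 CPM in wild type and 49.8, 23.3, 46.0, 55.8 and 50.1 CPM with saline. Lowest, median and highest with atrasentan were 7.05, 16.9 and 26.9 CPM. Wild type lay above both other groups in every library, and 6 of 7 atrasentan libraries lay below the saline range. Mme fell by 1.50 ± 0.28 on the log2 scale with atrasentan against saline (edgeR adjusted p = 0.000900) and fell by 2.26 ± 0.28 against wild type (adjusted p = 3.48e-05). For saline against wild type the log2 fold change was -0.76 ± 0.30 and did not pass (adjusted p = 0.147) although the ranges did not overlap.

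Enpep and Mme moved together, and Enpep moved with podocyte genes. Pearson's r between log2 levels of Enpep and Mme was 0.97 over the 17 libraries and 0.86 with group means removed. Of all genes tested the most like Enpep were Dpp4 (r = 0.996), a surface dipeptidyl peptidase, and Col4a3 (r = 0.991), a collagen chain of the glomerular basement membrane that is in the podocyte list. With group means removed these correlations were 0.99 and 0.97. For Mme the most like were Fa2h, Asb15 and Epb41l5 (r = 0.983, 0.977 and 0.969). These are descriptions over 17 libraries that share depth and tissue makeup. With group means removed, r with the proximal tubule mean was 0.24 for Enpep (permutation p = 0.432, adjusted p = 0.637 over the members). For Mme it was 0.55 (permutation p = 0.0479, adjusted p = 0.144), and neither passed. Among the atrasentan libraries alone r was 0.40 for Enpep and 0.79 for Mme. Log2 Enpep minus the podocyte mean was 1.21 ± 0.16 in wild type, 1.04 ± 0.53 with saline and -0.37 ± 0.65 with atrasentan. The difference of atrasentan from saline was -1.41 (adjusted p = 0.0227 over 6 tests, exact permutation p = 0.00758). From wild type it was -1.58 (adjusted p = 0.00758, exact p = 0.00126), and that of saline from wild type was -0.17 (exact p = 0.754). For Mme the same differences were -0.71 (exact p = 0.0290, adjusted p = 0.0474), -0.59 (exact p = 0.0316, adjusted p = 0.0474) and 0.12 (exact p = 0.548). With the podocyte mean as a covariate in edgeR, the log2 fold change of atrasentan against saline was -0.71 for Enpep (adjusted p = 0.0438) and -0.83 for Mme (adjusted p = 0.0456), and against wild type it was -0.09 for Enpep (adjusted p = 0.905) and -0.85 for Mme (adjusted p = 0.246). The ranges of the podocyte mean do not overlap between wild type and atrasentan, so there this fit cannot separate group from covariate. With the mean of proximal tubule markers as a covariate, the calls against saline were lost (-1.63, adjusted p = 0.379 for Enpep and -0.61, adjusted p = 0.549 for Mme). That mean's ranges do not overlap between saline and atrasentan.

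Anpep, aminopeptidase N, a classic brush border enzyme, had the other rise with saline (ENSMUSG00000039062.15, chr7:79821803-79861059, minus strand). Its level was 6.11, 8.23, 7.56, 12.1 and 8.40 CPM in wild type and 36.5, 12.1, 31.7, 9.84 and 18.4 CPM with saline. With atrasentan the lowest, median and highest were 5.32, 7.43 and 11.8 CPM. Saline libraries 1 and 3 were again the highest, 4 of 5 saline libraries lay above the wild type range, and 6 of 7 atrasentan libraries lay below the saline range. Anpep rose by a log2 fold change of 1.36 ± 0.32 with saline against wild type (edgeR adjusted p = 0.0253) and fell by 1.50 ± 0.29 with atrasentan against saline (adjusted p = 0.00108). For atrasentan against wild type it was -0.14 ± 0.29 (adjusted p = 0.743). The rise with saline was no longer called without any 1 of wild type libraries 1, 2, 3 and 5 or of saline libraries 1 and 3 (log2 fold changes of 1.06 to 1.35, adjusted p of 0.0582 to 0.0801), with limma-voom (1.21, adjusted p = 0.0563), or without saline libraries 1 and 3 together (0.65, adjusted p = 0.344). Without those 2 libraries the fall with atrasentan was -0.81 (adjusted p = 0.0307).

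Relative to the proximal tubule mean, Anpep was ordered differently from Agt. Log2 Anpep minus that mean was -3.52 ± 0.20 in wild type, -3.98 ± 0.26 with saline and -2.14 ± 0.82 with atrasentan, so saline was lowest here, with no overlap between any pair of groups. Saline differed from wild type by -0.46 (exact permutation p = 0.00794, adjusted p = 0.0179 over the 27 tests), where Agt differed by 1.16. This Anpep difference no longer passed without wild type library 1 (-0.47, adjusted p = 0.0504 by the exact test) or 5 (-0.37, adjusted p = 0.0536), nor without saline libraries 1 and 3 together (-0.32, adjusted p = 0.0567). Atrasentan differed from saline by 1.84 (exact p = 0.00126, adjusted p = 0.00682) and from wild type by 1.38 (exact p = 0.00631, adjusted p = 0.0171). Nearly every member shifted on this scale, where the subtracted mean itself was 6.58 in wild type, 8.24 with saline and 5.05 with atrasentan. A gene of unchanged level shifts here too, so the counts that follow are not a result about the members. The share over all genes was not computed. For saline against wild type 7 of the 9 passed, Agt higher and 6 lower, and for atrasentan against saline 8 of the 9 passed, all higher. Those 8 include Ren1 (by 3.03, adjusted p = 0.0152 by the exact permutation test) and Atp6ap2 (by 3.31, adjusted p = 0.00682), neither of them called per library. Among mice of the same group, Anpep followed the tubule mean with r = 0.79 (permutation p = 0.00182, adjusted p = 0.00819, n = 17; Spearman's rho 0.72, permutation p = 0.00882, adjusted p = 0.0397), r was 0.94 without the 2 farthest libraries and 0.55 among the 7 atrasentan libraries. With the tubule marker mean as a covariate, its log2 fold change was 0.48 with saline against wild type (adjusted p = 0.702) and 0.10 with atrasentan against saline (adjusted p = 0.934). The genes most like Anpep were Cfb (r = 0.973), complement factor B, Galnt11 (r = 0.970) and Acy3 (r = 0.969), an aminoacylase. Those most like Agt were Susd3, Fbxo36 and Slc5a10, a sodium-sugar cotransporter (r = 0.972, 0.968 and 0.963, n = 17). Agt and Anpep correlated with each other at r = 0.88 (0.80 with group means removed).

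Agtr1a encodes the main AT1 receptor of the mouse kidney, carried by mesangial and vascular cells, and was the only one of the 9 to rise with atrasentan against saline (ENSMUSG00000049115.15, chr13:30336441-30382867, plus strand). Its level was 428.9, 465.0, 332.8, 429.9 and 373.4 CPM in wild type and 356.3, 386.9, 374.8, 370.2 and 387.0 CPM with saline. The atrasentan libraries had 445.2, 683.6 and 886.3 CPM as lowest, median and highest. All 7 atrasentan libraries lay above all saline libraries and 6 of 7 above all wild type libraries, and the saline libraries were the most alike of any member and group (3.42% coefficient of variation). Agtr1a rose by a log2 fold change of 0.87 ± 0.14 with atrasentan against saline (edgeR adjusted p = 0.000328) and 0.76 ± 0.14 against wild type (adjusted p = 0.000577). For saline against wild type it was -0.11 ± 0.14 (adjusted p = 0.717). Log2 Agtr1a minus the mesangium mean was 0.00 ± 0.13 in wild type, 0.09 ± 0.07 with saline and 0.26 ± 0.07 with atrasentan. On that scale atrasentan differed from saline by 0.17 (exact permutation p = 0.00126, adjusted p = 0.00379 over 3 tests) and from wild type by 0.26 (exact p = 0.00505, adjusted p = 0.00758), and saline from wild type by 0.08 (exact p = 0.238). These differences per mesangial RNA are set beside 0.87 and 0.76 per library. Hcar1, Ptbp1 and Mfge8 had the patterns most like it (r = 0.957, 0.953 and 0.949, n = 17). With the tubule marker mean as a covariate, the log2 fold change against saline was 0.96 but not called (adjusted p = 0.114). That fit called 3 genes in all, and the tubule mean's ranges do not overlap between saline and atrasentan. Agtr1a stayed called against saline with the podocyte mean as a covariate (1.04, edgeR adjusted p = 0.00150). The same held with the podocyte minus the proximal tubule mean (0.82, adjusted p = 0.0299).

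Agtr1b, the second AT1 receptor gene of the mouse, was at the edge of detection (ENSMUSG00000054988.9, chr3:20314473-20367177, minus strand). It had 20, 20, 18, 7 and 3 reads in wild type and 14, 6, 9, 9 and 8 reads with saline. With atrasentan it had 0 to 14 reads, and atrasentan library 2, with none, allows up to 0.0817 CPM (3 reads, counting error only). Mean levels were 0.383 ± 0.225, 0.243 ± 0.0764 and 0.122 ± 0.140 CPM, so nearly all AT1 receptor RNA here came from Agtr1a. No comparison passed: the log2 fold change was -0.65 ± 0.71 for saline against wild type (edgeR adjusted p = 0.664), -0.97 ± 0.69 for atrasentan against saline (adjusted p = 0.284) and -1.62 ± 0.67 for atrasentan against wild type (adjusted p = 0.0777). The last one passed with limma-voom (-2.10, adjusted p = 0.0281) and without atrasentan library 4 (-1.96, adjusted p = 0.0486). Of the 50-base runs in Agtr1b transcripts 1.54% also occur in Agtr1a, where reads could not be assigned to either.

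Atp6ap2, the (pro)renin receptor and an accessory protein of the vacuolar proton pump, was called in 1 of the 3 comparisons (ENSMUSG00000031007.2, chrX:12587801-12617049, plus strand). Its level was 151.4, 176.6, 163.5, 150.2 and 151.3 CPM in wild type and 212.2, 162.7, 186.7, 159.1 and 180.4 CPM with saline. In the 7 atrasentan libraries the lowest, median and highest were 167.9, 193.5 and 232.3 CPM. Of 7 atrasentan libraries 5 lay above the wild type range. Atp6ap2 rose by a log2 fold change of 0.30 ± 0.10 with atrasentan against wild type (edgeR adjusted p = 0.0245), and it was 0.18 ± 0.10 for saline against wild type (adjusted p = 0.317) and 0.12 ± 0.09 for atrasentan against saline (adjusted p = 0.360). That call was lost with upper-quartile scaling (0.23, adjusted p = 0.0786), without a filter on low counts (adjusted p = 0.0502), and without wild type library 1, 4 or 5 (adjusted p of 0.0550 to 0.0583). With the podocyte mean as a covariate, whose ranges do not overlap between wild type and atrasentan, the value was -0.02 (adjusted p = 0.964). Rab1a, Stx7 and Chmp2b, genes of membrane traffic, were most like it (r = 0.921, 0.904 and 0.898, n = 17). For Ren1 these were Cpe, Ldb3 and Kcnmb1 (r = 0.859, 0.819 and 0.730), and for Ace they were Jak2, Cdan1 and Myo7a (r = 0.802, 0.799 and 0.794).

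A list of 18 other renin-angiotensin genes held the remaining receptors, other angiotensin-forming or angiotensin-cleaving proteases and the mineralocorticoid receptor. Of these 14 were tested, while Agtr2, Mrgprd, Mcpt4 and Ctsg had too few reads (6 to 50 in all 17 libraries together). With saline against wild type 1 of 14 rose and 0 fell (5.12% of all genes called), with a median log2 fold change of 0.18. It was Rnpep, aminopeptidase B, whose level was 48.5 ± 2.15 CPM in wild type and 65.8 ± 3.20 with saline, a log2 fold change of 0.44 ± 0.08 (edgeR adjusted p = 0.00791) with no overlap. Against saline, 1 rose with atrasentan (Rnpep, 0.24 ± 0.07, adjusted p = 0.0181) and 1 fell (33.8% of all genes called), with a median within 0.01 of 0. It was Mas1, the receptor of angiotensin 1-7, with 3 to 25 reads per saline library and 0 to 5 with atrasentan, 3 of the 7 at 0. Mas1 fell by 3.04 ± 0.81 on the log2 scale (adjusted p = 0.00841), a value that rests on those few reads. Against wild type, Rnpep (0.68 ± 0.07, adjusted p = 1.28e-05), Ctsa (0.45 ± 0.12, adjusted p = 0.0106), the lysosomal carboxypeptidase cathepsin A, and Prep (0.38 ± 0.08, adjusted p = 0.00261), prolyl endopeptidase, rose with atrasentan. Mas1 fell by 3.13 ± 0.81 against wild type (adjusted p = 0.00773), the only 1 of the 14 to fall, and 29.2% of all genes were called. Each of the 7 atrasentan libraries lay above all wild type libraries for Rnpep, Ctsa and Prep.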

How the data were processed

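Poly(A) RNA of 17 glomeruli-enriched kidney cortex samples was sequenced as single 50-base reads from libraries of an unstranded kit, per the labels' protocols. The authors deposited raw counts per gene for all libraries and a normalized table on a log2 scale (17338 genes, 8 of the members), which served 1 alternative only and whose transform no source used here states. The submitters' processing notes name STAR, HTSeq, DESeq2, edgeR, limma and GRCm38, without versions or roles. No source used here states the annotation release or the strand setting. The 5 HTSeq lines that name no gene stayed out of library sizes; reads with several alignments made up 23.4% to 31.8% of a library and were not assigned to genes. Gene reads per library ran from 29161833 to 52528747, so that counting error is small beside the spread between mice except for Agtr1b, Mas1 and Cma1. Symbols, coordinates and exon lengths came from GENCODE M21 (GRCm38), and 99.8% of identifiers had a symbol.

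Counts were tested with edgeR 4.0.16 (R 4.3.3; TMM, filterByExpr by group, quasi-likelihood F test, two-sided, all 17 libraries in 1 fit, Benjamini-Hochberg over 17766 genes, called under 0.05 with no minimum fold). The standard error is the fold change divided by the root of F. Log2 CPM used a prior count of 2. Levels relative to marker means were tested by exact permutation over libraries (two-sided), whose smallest p is 0.00794 for 5 against 5 and 0.00126 for 7 against 5. Correlations used 100000 permutations within groups. The scripts were tested on simulated data. Genes named beside the members are the 3 with the highest r to each member and the called genes of a list of 18 other pathway genes. Agtr1b has no such genes named, since its counts are too low. A planned ratio and some planned genes are not reported here. The members, lists and tests were chosen with earlier results of these data known, and the marker covariate and marker ratio for podocytes and mesangium after the data were seen. Replicates are separate mice of 1 labelled batch; the libraries of a group differed in all 41 pairs (chi-square per degree of freedom of 17.4 to 176.4). Of the 50-base runs in each member's transcripts, at most 3.77% (Ace) also occur in another gene.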

Additional observations from a re-analysis of the deposited data

Results flagged for a closer look

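In 2 of 27 groups of libraries examined (the 9 members in 3 groups each), 1 library stood apart from the rest by Dixon's gap test, where chance gives 1.35. Agt in atrasentan library 6 was 16.5 CPM against 1.69 to 7.65 CPM in the other 6, a gap of 0.598 of the range (critical value 0.568). That library also had the highest proximal tubule mean of its group (6.74). Mme in wild type library 3 was 112.2 CPM against 60.4 to 73.2 CPM in the other 4, a gap of 0.753 (critical value 0.710). That library also had the highest Enpep level (994.0 CPM) and the highest podocyte mean (8.50) of all 17.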

How the results depend on the processing

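No paired analysis was possible because the labels number no replicates and the numbers used here follow the order of the samples. Of 748 alternative values of the members' fold changes, 689 kept their direction and side of the threshold, 28 lost the call, 5 gained it and 26 changed sign. Of 513 values relative to the proximal tubule mean these numbers were 466, 36, 4 and 7. The median log2 fold change of all genes moved by over 0.1 in 2 fits, both for atrasentan against saline: from -0.0051 to -0.12 with the DESeq2 test and to 0.096 with the tubule mean as a covariate.

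Saline against wild type was the least stable. None of the members was called with limma-voom, without saline libraries 1 and 3, or with the proximal tubule mean, the podocyte mean or their difference as a covariate (0 in each). All genes called numbered 550, 54, 39, 65 and 0 in those fits, 1979 with the DESeq2 test and 1430 with only the 2 groups compared. Leaving out 1 library gave 1 to 2 members and 216 to 1523 genes. Atrasentan against saline gave 0 members and 3 genes with the tubule mean as a covariate, 3 members and 803 genes with the difference of the marker means, and 2577 genes without saline libraries 1 and 3. Atrasentan against wild type gave 1 member and 1432 genes with the podocyte mean as a covariate. The ranges of the podocyte mean do not overlap between wild type and either other group. Those of the proximal tubule mean do not overlap between saline and atrasentan. In these comparisons the fits cannot separate group from covariate. The causes of the changes were not tested.

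Of the 9 members relative to the proximal tubule mean, 7, 8 and 7 passed for saline against wild type, atrasentan against saline and atrasentan against wild type. That mean itself differs between the groups, so these counts are not a result about the members. Saline against wild type gave 0 that passed without saline libraries 1 and 3, where 3 against 5 mice are left, and 3 to 8 leaving out 1 library; atrasentan against saline gave 5 without those 2.

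Signs changed as follows. With the podocyte mean as a covariate: Agtr1a 0.076, Agtr1b 0.91 and Enpep 0.62 (saline against wild type), Atp6ap2 -0.039 (atrasentan against saline), and Agtr1b 0.85 and Atp6ap2 -0.016 (atrasentan against wild type). With the tubule mean as a covariate: Agt 1.58 and Anpep 0.10 (atrasentan against saline), and Ren1 -0.12 and Anpep 0.58 (atrasentan against wild type). With the difference of the marker means: Agt 0.19 (atrasentan against saline). Ace, near 0 with atrasentan against saline, was -0.034 with limma-voom, -0.021 in the authors' normalized table, -0.07 without saline libraries 1 and 3, and -0.12 to 0.10 leaving out 1 library. Ren1 (atrasentan against wild type) was -0.022 with upper-quartile scaling and -0.10 to 0.34 leaving out 1 library, and Anpep -0.28 to 0.018. Agtr1b relative to the tubule mean (atrasentan against wild type) was -0.53 with a prior count of 0.5 and -0.26 to 0.37 leaving out 1 library. Depth limits Agtr1b (at most 20 reads), Mas1 and Cma1 (123 and 126 reads in all 17 libraries).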
